A study of Mus musculus with 12 samples.

Results

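The 10 genes described here encode chemokines and inflammatory proteins secreted by stromal fibroblasts: Ccl2, Ccl7, Ccl11, Cxcl1, Cxcl5, Cxcl14, Il6, Lif, Ptx3 and Tnfaip6. They were chosen by name from tables of 25655 genes, and each of the 10 names matched a single row in each table. RNA came from PDGFRα+ mesenchymal cells of female mice, sorted from skeletal muscle as CD45-, CD31- and Vcam1- cells or from bone as CD45- and CD31- cells. Stromal progenitor cells are recognised by PDGFRα, a receptor for platelet-derived growth factor. Knockout samples in both tissues (3 each) carried PDGFRα-CreER, a Cre recombinase that tamoxifen activates in PDGFRα-expressing cells, and Esr1flox/flox, floxed alleles of the estrogen receptor alpha gene. Control samples (3 in each tissue) were of mixed genotype. In muscle, control replicates 1 and 2 carried PDGFRα-CreER alone, and replicate 3 carried PDGFRα-CreER with Esr1flox/+. In bone, control replicate 1 was Esr1flox/flox without the Cre, and replicates 2 and 3 carried PDGFRα-CreER alone. Ages, tamoxifen dosing and whether replicates were separate animals are not stated in the labels, so p-values measure only a spread between samples that may be partly technical.

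Chemokines are small secreted proteins that draw leukocytes along a gradient by binding G-protein-coupled receptors. They fall into CC and CXC families by the spacing of their first cysteines. In connective tissue, fibroblasts release them together with the cytokines IL-6 and LIF, which both signal through the shared receptor chain gp130 (Il6st) to the transcription factor STAT3. Interleukin-1 and TNF induce many of these genes through the transcription factors NF-κB and AP-1. Ptx3 and Tnfaip6 encode secreted proteins that take part in cross-linking the hyaluronan-rich matrix of inflamed tissue, TSG-6 by binding hyaluronan and PTX3 by binding TSG-6 and the heavy chains of inter-alpha-inhibitor. Ligand-bound estrogen receptor alpha is known to repress some NF-κB targets, and it binds DNA directly at estrogen response elements.

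Promoter sequence was matched by symbol in the RefSeq table of GRCm38.p6 for Tnfaip6, Ptx3, Il6, Cxcl1, Lif and Cxcl14, which are 6 of the 10 genes. Each promoter runs from 250 bases before the annotated start to 50 bases after it. Both strands were searched for the NF-κB site of the consensus kind shown in capitals in Il6 and Cxcl1, the AP-1 site TGANTCA and the full palindromic estrogen response element. The last 2 motifs read the same on both strands, and none of the matches found in the 6 promoters overlapped another. The NF-κB letters were in 2 of the 6 promoters (Il6 and Cxcl1) and in 0.438% of 20544 promoters of genes in the tables. The AP-1 letters were in 3 of the 6 (Tnfaip6, Il6 and Lif) and in 7.10% of all promoters. The full estrogen response element was in 0 of the 6 and in 0.0487% of all. A match describes the letters of this window only. The promoters of 4 genes are printed, picked by level, sites or p, and no value below was tested against them. Cxcl1 had the highest level of the 10 genes in muscle, Il6 held both kinds of site, Tnfaip6 had the smallest p in muscle and Ptx3 the smallest in bone. Capitals mark the matches. In Il6 the NF-κB site GGGATTTTCC begins 44 bases before the start and the AP-1 site 249 bases before it. In Cxcl1 the NF-κB site GGGAATTTCC begins 71 bases before the start, and in Tnfaip6 the AP-1 site begins 142 bases before it. Starts here are those of RefSeq and can differ from the GENCODE M21 starts given with each gene below. For Tnfaip6 the GENCODE start, 52038009, lies upstream of the RefSeq start, so the site is nearer to it. The Ptx3 promoter held no match to the letters searched for NF-κB or AP-1. Looser forms of the NF-κB site were not searched for, so their absence from any of these promoters is not shown.
Cxcl1 promoter, chr5:90890995-90891294, + strand: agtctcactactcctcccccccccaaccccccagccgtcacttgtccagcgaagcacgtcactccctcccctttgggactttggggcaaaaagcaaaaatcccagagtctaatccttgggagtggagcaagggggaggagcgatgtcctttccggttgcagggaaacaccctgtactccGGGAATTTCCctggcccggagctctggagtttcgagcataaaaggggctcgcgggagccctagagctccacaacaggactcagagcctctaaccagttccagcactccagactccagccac
Il6 promoter, chr5:30012864-30013163, + strand: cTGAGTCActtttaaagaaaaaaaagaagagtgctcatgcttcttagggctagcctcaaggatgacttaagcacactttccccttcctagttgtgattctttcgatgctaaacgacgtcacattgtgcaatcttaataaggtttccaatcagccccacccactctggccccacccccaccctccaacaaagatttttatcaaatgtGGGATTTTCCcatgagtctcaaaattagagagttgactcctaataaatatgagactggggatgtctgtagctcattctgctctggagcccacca
Tnfaip6 promoter, chr2:52037863-52038162, + strand: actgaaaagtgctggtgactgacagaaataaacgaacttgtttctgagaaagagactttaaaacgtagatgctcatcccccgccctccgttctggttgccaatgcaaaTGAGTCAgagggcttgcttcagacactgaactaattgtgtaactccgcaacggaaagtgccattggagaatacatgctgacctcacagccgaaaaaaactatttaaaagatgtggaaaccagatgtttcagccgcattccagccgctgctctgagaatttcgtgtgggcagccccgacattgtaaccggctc
Ptx3 promoter, chr3:66219637-66219936, + strand: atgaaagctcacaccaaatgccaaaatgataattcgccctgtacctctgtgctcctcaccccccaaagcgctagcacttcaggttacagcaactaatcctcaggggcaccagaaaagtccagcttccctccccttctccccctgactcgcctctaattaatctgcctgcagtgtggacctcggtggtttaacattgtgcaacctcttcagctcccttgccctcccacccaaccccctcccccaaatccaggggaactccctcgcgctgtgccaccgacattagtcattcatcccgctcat

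Values per sample are not analysed here, because no name of a per-library column matches a sample label. Each level below is therefore the larger of the knockout and control group means, which the authors give for each tissue in a unit the header does not name. Each log2 fold change is knockout over control. An approximate 95% interval was derived from each fold change and its p on the assumption of a two-sided normal test, since the sources used here do not give the authors' test. The word called is kept for an FDR below 0.05 as the authors give it. The tables of the 2 tissues were handled apart, so a level set across them is not a test. The libraries were made from the 3' ends of transcripts. Leaving out runs of only 1 or 2 kinds of base, no 40-base stretch of the last 500 bases of any of the 10 genes' annotated transcripts was found in a transcript of another gene. Ccl2 overlaps Gm17268 and Ptx3 overlaps Veph1, each on the opposite strand. Whether counting used strand is not stated, but Gm17268 was listed at 0 in both tissues by the authors' deposited table, and Veph1 had larger group means of 0.158 in muscle and 0 in bone. The targeted gene, Esr1, was not called, with log2 fold changes of 1.02 in muscle (p = 0.404) and -2.69 in bone (p = 0.245) by the authors' deposited table. Because the floxed exons are not named and the libraries read 3' ends, this value is no check of the genotype.

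The muscle table carried the markers of the sorted cells, and the bone table carried much blood RNA. The 15 markers of PDGFRα+ stroma accounted for 5.65% of the muscle total and 0.277% of the bone total when all larger group means of the authors' deposited table were summed. Pdgfra itself had a larger group mean of 494 in muscle and 8.60 in bone by the authors' deposited table. The 14 macrophage and pan-leukocyte markers made up 0.00876% of that total in muscle, where 1 of them had an FDR, and 0.174% in bone. Erythroid markers made up 0.342% in muscle and 58.7% in bone. Neutrophil markers made up 0.00299% in muscle, with Elane, Ltf, Ly6g and Mpo at 0, and 1.05% in bone. Of 8 endothelial markers, 0 were at a mean of 0 in muscle, with a summed level of 42.6, and 6 were at 0 in bone.

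In muscle, 8 of the 10 genes had a negative log2 fold change in knockout cells and none was called. Their log2 fold changes by the authors' deposited table lay between -1.53 and 1.55. By sign alone, 46.5% of all genes with a p were negative. All 10 had an FDR, and 0 were called, against 0.127% of the 7107 genes with an FDR. At an unadjusted p under 0.05, 2 were lower (Tnfaip6 and Ccl7) and 0 higher, where 5.31% of 13158 genes were lower and 6.41% were higher. All 10 genes had a larger group mean above 50, and among the 3149 genes at or above that level 2.89% were lower at p under 0.05 and 50% had a negative sign. The median log2 fold change was -0.49 over the 10 genes and 0.12 over all genes with a p. The members were chosen with results of these data known, so this median is a description without a test. In such bulk samples, fewer cells of a type and less RNA per cell cannot be told apart.

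Ccl2, Ccl7 and Ccl11, the CC chemokines of the set, all had negative values in muscle. Ccl7 (ENSMUSG00000035373, chromosome 11, 82045712 to 82047525 on GRCm38) encodes a ligand that draws monocytes. In the authors' deposited table it had a larger group mean of 516 and a log2 fold change of -1.07 (p = 0.00597, FDR = 0.310), with an approximate interval of -1.83 to -0.31. As a description chosen after the values were seen, its fold change was below that of all 64 genes whose level lay within 10% of its own. This rank adds no support to the p, and the counts for the other genes are given with Tnfaip6 below. Ccl2 (ENSMUSG00000035385, chromosome 11, 82035571 to 82037453) encodes the main ligand of the monocyte receptor CCR2. Its log2 fold change by the authors' deposited table was -0.51 (p = 0.284), at a level of 277 and with an interval of -1.43 to 0.42. Ccl11 (ENSMUSG00000020676, chromosome 11, 82057823 to 82062955), eotaxin, which draws eosinophils, had -0.37 by the authors' deposited table (p = 0.552) at a level of 139, with an interval of -1.58 to 0.84. The intervals of Ccl2 and Ccl11 include both 0 and the value of Ccl7, so these data do not separate the 3 genes.

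Cxcl1 was by level the leading gene of the set in muscle. Cxcl1 (ENSMUSG00000029380, chromosome 5, 90891241 to 90893115) encodes a ligand of the neutrophil receptor CXCR2. Its larger group mean of 5639.8 by the authors' deposited table ranked 20 among 25655 genes, and the next of the 10 genes, Tnfaip6, ranked 182. Its log2 fold change by the authors' deposited table was -0.47 (p = 0.127), and the interval of -1.06 to 0.13 is the narrowest of the 10. Cxcl5 (ENSMUSG00000029371, chromosome 5, 90759360 to 90761624), another CXCR2 ligand, had the lowest level of the set, 60.8, and a log2 fold change of -1.53 by the authors' deposited table (p = 0.113). That fold change is the most negative of the 10, but its interval of -3.42 to 0.36 is wide and includes 0. Cxcl14 (ENSMUSG00000021508, chromosome 13, 56288643 to 56296551), a chemokine expressed by fibroblasts and epithelia without inflammatory stimulus, had 0.05 by the authors' deposited table (p = 0.890) at a level of 339. Its interval of -0.69 to 0.79 leaves a change of 1 log2 unit in either direction outside, but only under the normal assumption. With a t distribution of 4 degrees of freedom, the median half-width over the 10 genes was 1.20 against 0.94.

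The gp130 cytokines took opposite signs in muscle. Lif (ENSMUSG00000034394, chromosome 11, 4257557 to 4272514), which encodes leukemia inhibitory factor, had a log2 fold change of 1.55 by the authors' deposited table (p = 0.119) at a level of 94.2, with an interval of -0.40 to 3.50. It was 1 of 2 genes of the set with a positive value. Il6 (ENSMUSG00000025746, chromosome 5, 30013114 to 30019981), interleukin-6, had -0.16 by the authors' deposited table (p = 0.750) at a level of 252, with an interval of -1.11 to 0.80. Neither passed the test, and the intervals of Lif and Il6 overlap.

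Tnfaip6 and Ptx3, the matrix protein genes of the set, were both negative in muscle. Tnfaip6 (ENSMUSG00000053475, chromosome 2, 52038009 to 52056686), also called TSG-6, encodes a protein that transfers heavy chains of inter-alpha-inhibitor onto hyaluronan. In the authors' deposited table it had a level of 912 and a log2 fold change of -0.87 (p = 0.00578, FDR = 0.310), with an interval of -1.49 to -0.25. All 41 genes within 10% of its level had a higher fold change, a description likewise chosen after the values were seen. Such genes with a lower value numbered 20 of 123 for Ccl2, 56 of 226 for Ccl11 and 0 of 8 for Cxcl1. They numbered 37 of 467 for Cxcl5, 48 of 90 for Cxcl14 and 59 of 141 for Il6. For Lif they numbered 361 of 377, and for Ptx3 12 of 152. Ptx3 (ENSMUSG00000027832, chromosome 3, 66219910 to 66225805), the long pentraxin, had -0.75 by the authors' deposited table (p = 0.183) at a level of 195, with an interval of -1.85 to 0.35. Has2, the hyaluronan synthase gene, is among the 13 hyaluronan matrix partners listed, and had -1.91 by the authors' deposited table (p = 0.00319, FDR = 0.262). Cd44, the hyaluronan receptor gene, had 0.79 by the authors' deposited table (p = 0.0493, FDR = 0.814). None of these genes was called.

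**Figure D1:**
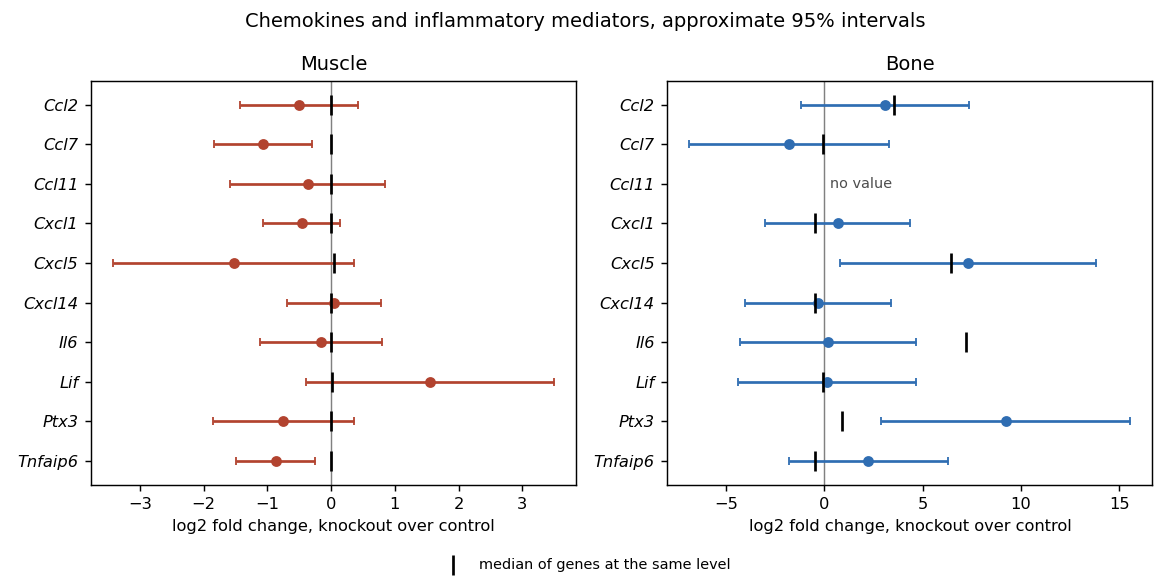
Log2 fold change of knockout over control for the 10 genes in muscle (left) and bone (right), from the authors' tables, with horizontal bars for approximate 95% intervals and black ticks for the median of genes in the same decile of level. The x axes differ: muscle values lie between -1.53 and 1.55, and bone values between -1.77 and 9.22, with no value for Ccl11 in bone.

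Stromal markers were measured in the same muscle comparison, where 6.41% of all genes were higher at p under 0.05 and 5.31% lower. Of the 15, 1 was called higher (Col1a2) and 5 were higher at p under 0.05, with none lower, and their median log2 fold change was 0.51. Pdgfra had 0.50 by the authors' deposited table (p = 0.139). The 14 macrophage and pan-leukocyte markers had a median of 1.77 with 0 at p under 0.05, and Ptprc (CD45) had a larger group mean of 0.781 by the authors' deposited table. Of their summed level of 101, Lyz2 had 61.4 and Csf1r 15.4. These 2 had negative log2 fold changes, -0.91 (p = 0.418) and -1.48 (p = 0.496) by the authors' deposited table. The 12 others were positive, at levels of at most 9.42, so the median rests on genes of low level. Erythroid markers had 2 lower at p under 0.05 and 0 higher, with a median of -0.82. The part of these in the values of the 10 genes was not tested.

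The other genes of the pathway in muscle had 0 calls in either direction, where 0.127% of the 7107 muscle genes with an FDR were called. Their counts at p under 0.05, here and in the next paragraph, stand against 6.41% of all muscle genes higher and 5.31% lower. The 7 lists of other ligands, receptors, signalling genes, matrix partners and mediators were chosen with earlier results of these data known. In the NF-κB pathway list, 20 of 20 genes had a p, 2 were higher and 2 lower at p under 0.05, and the median was 0.05. Il1r1, the interleukin-1 receptor gene, had 1.70 by the authors' deposited table (p = 0.0183, FDR = 0.545), and Birc3, an NF-κB target and regulator, had 2.85 (p = 0.0398). Myd88, the adaptor of that receptor, had -1.35 by the authors' deposited table (p = 0.0254), and Rel, an NF-κB subunit gene, had -2.49 (p = 0.0435). The receptor and its adaptor therefore had opposite signs, and neither was called. In the IL-6 family signalling list, 13 of 15 genes had a p, 1 was higher at p under 0.05 and 0 lower, and the median was 0.12. Jak2, a kinase of gp130 signalling, was that gene, with 4.26 by the authors' deposited table (p = 0.0266, FDR = 0.651) at a level of 22.2. Clcf1, a gp130 cytokine gene, had 2.17 by the authors' deposited table (p = 0.222), and Il6ra, the IL-6 receptor gene, had -0.88 (p = 0.400).

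Other chemokine ligands were mostly low in muscle. Of 17 CC ligands outside the set, 8 were listed at 0, 9 had a p and 2 an FDR, with 0 at p under 0.05. Of 11 CXC ligands outside the set, 9 had a p and 1 was higher at p under 0.05. This was Cxcl13, a B cell chemokine gene, with 4.28 by the authors' deposited table (p = 0.0155, FDR = 0.518) at a level of 31.5. Among 13 chemokine receptors, 9 had a p and 1 was higher at p under 0.05. Ackr2, which encodes a scavenging receptor for CC chemokines including those of Ccl2, Ccl7 and Ccl11, had 8.29 by the authors' deposited table (p = 0.0100) at a level of 16.2, with no FDR given. The median of its decile of level was 0.17. Such a value may stand for a control group at or near 0, which was not tested, and is not an estimate of size. The 18 other inflammatory mediators had 13 genes with a p and 0 at p under 0.05. Ptgs2, the cyclooxygenase gene of prostaglandin synthesis, came nearest, with 0.71 by the authors' deposited table (p = 0.0513) at a level of 494. The hyaluronan partners had 2 higher and 1 lower at p under 0.05 of 9 with a p.

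**Figure D2:**
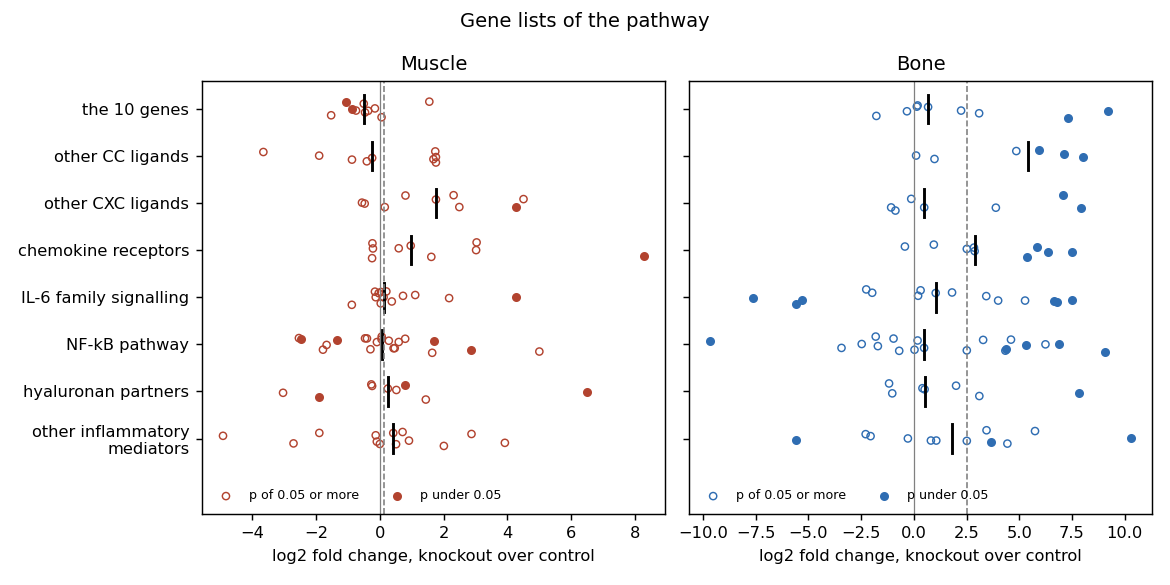
Log2 fold change of knockout over control for each gene with a p, by list, in muscle (left) and bone (right). Filled points have an unadjusted p under 0.05, black bars are list medians and the dashed line is the median of all genes (0.12 in muscle, 2.51 in bone). The median of the 10 genes is -0.49 in muscle and that of the 9 with a p is 0.68 in bone, and no gene of these lists was called.

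In the bone table the same genes had lower levels, and none was called. Ccl11 was listed at 0, and the other 9 had larger group means between 3.33 and 62.8 by the authors' deposited table. Of these 9, which all had an FDR, 0 were called, against 0.0352% of 8534 genes. At an unadjusted p under 0.05, 2 were higher (Ptx3 and Cxcl5) and 0 lower, where 28.8% of 10518 genes were higher and 4.2% were lower. The count of members higher is thus near the background of the table. The median log2 fold change was 0.68 over the 9 genes and 2.51 over all genes with a p. At a level of at most 10, 84.3% of 5455 bone genes had a positive value, so a sign at such levels says little of a gene.

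Ptx3 had the smallest p of the set in bone. In the authors' deposited table it had a log2 fold change of 9.22 (p = 0.00440, FDR = 0.0784) at a level of 15.1. Cxcl5 had 7.30 by the authors' deposited table (p = 0.0281, FDR = 0.0947) at a level of 3.33. Both lie on the upper edge of the plot of level against fold change, which was examined by level after the values were seen. The highest value among genes within 10% of their level exceeded that of Ptx3 by 0.25 and that of Cxcl5 by 0.12. Of the 482 genes at the level of Ptx3, 30.5% were within 1 log2 unit of that edge, as were 71.3% of the 387 at the level of Cxcl5. Such values may stand for a control group at or near 0, which was not tested, and they are not estimates of size. With the adjustment recomputed over the 5063 genes at a level of at least 10, Ptx3 had an adjusted p of 0.0499 and passed. In that setting 14.1% of genes passed. Ptx3 entered that set through its knockout mean, the larger of its group means, so this pass is no added support. At an FDR under 0.1 both Ptx3 and Cxcl5 passed, as did 32.2% of bone genes.

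The remaining genes had wide intervals in bone. Tnfaip6 had a log2 fold change of 2.24 by the authors' deposited table (p = 0.277) at a level of 48.6, with an interval of -1.80 to 6.29. Ccl2 had 3.10 by the authors' deposited table (p = 0.155) at a level of 12.4, close to the median of 3.54 of genes in its decile of level. Cxcl1 had 0.68 by the authors' deposited table (p = 0.718) at a level of 53.6, with an interval of -3.00 to 4.36. Ccl7 was negative in bone too, with -1.77 by the authors' deposited table (p = 0.493) at a level of 32.3, and its interval ran from -6.85 to 3.30. Cxcl14 had the highest level of the set in bone, 62.8, and a log2 fold change of -0.32 by the authors' deposited table (p = 0.865). Lif had 0.14 (p = 0.950) at a level of 30.2 and Il6 had 0.18 (p = 0.937) at 3.63 by the authors' deposited table. The genes at the level of Il6 had a decile median of 7.19, far above its own value. The median half-width of the interval was 4.48 over the 9 bone genes and 0.94 over the 10 muscle genes. Changes of the size seen in muscle were not detectable in bone.

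**Figure D3:**
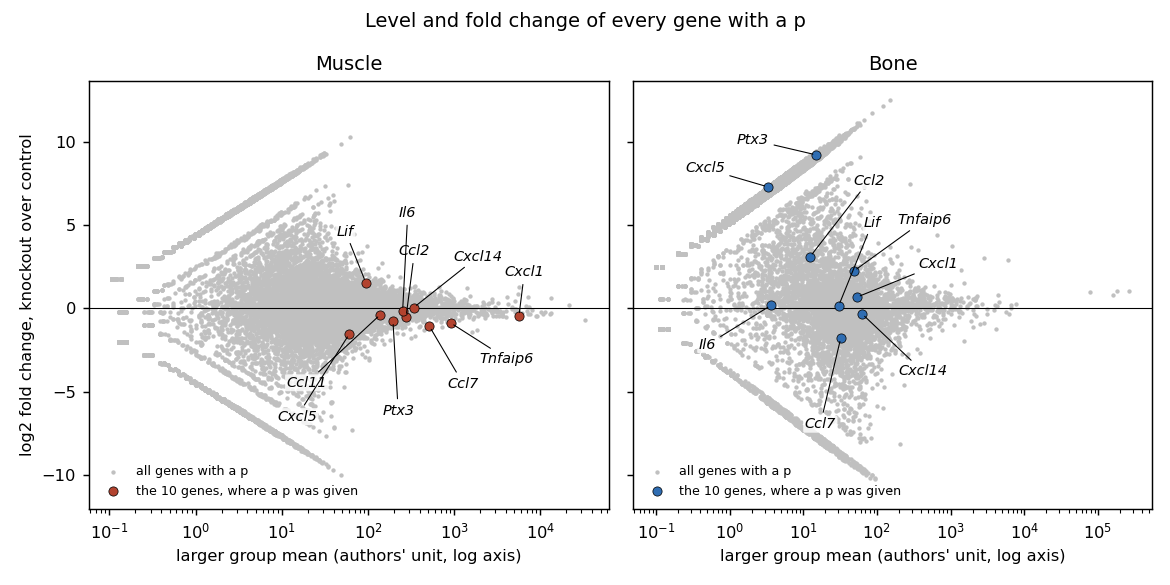
Log2 fold change against the larger group mean (log axis, authors' unit) for every gene with a p in muscle (left) and bone (right), with the 10 genes coloured. In muscle they lie at levels from 60.8 to 5639.8, and in bone Ptx3 and Cxcl5 lie on the upper edge of the cloud, at 9.22 and 7.30.

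Leukocyte markers were measured in the same bone comparison, where 28.8% of all genes were higher at p under 0.05 and the median of all genes was 2.51. Of 14 macrophage and pan-leukocyte markers 7 were higher at p under 0.05 and 0 lower (median 2.84), and of 10 neutrophil markers 8 were higher, 1 of them called (Ltf), and 0 lower (median 3.39). Relative to genes of the same decile of level, the medians were 1.25 for the macrophage and pan-leukocyte markers and 3.41 for the neutrophil markers. Ptprc had a level of 23.1 and a positive fold change by the authors' deposited table (p = 0.0655). The 15 stromal markers had 2 higher and 0 lower at p under 0.05, with a median of 0.32, which is -0.67 relative to genes of the same decile. Erythroid markers had 0 higher and 0 lower, with a median of 0.82, which is 0.84 relative to that decile. The part of all these markers in the values of Ptx3, Cxcl5 and the other mediators was not tested.

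The other pathway genes in bone also had 0 calls, where 0.0352% of the 8534 bone genes with an FDR were called. Their counts at p under 0.05 stand against 28.8% of all bone genes higher and 4.2% lower, and their medians against 2.51 over all genes. Il1b, which encodes the cytokine interleukin-1 beta, had 10.32 by the authors' deposited table (p = 0.00254, FDR = 0.0784) at a level of 33.6. Its part in the values of the set was not tested. Cxcl2, which encodes another CXCR2 ligand, had 7.93 by the authors' deposited table (p = 0.00217, FDR = 0.0784) at a level of 23.0. Lcn2, a gene of neutrophils and inflamed stroma, had 3.68 by the authors' deposited table (p = 0.00261) at a level of 288. Nfkbiz, an NF-κB cofactor gene, had 9.07 and Ikbkg, the gene of the regulatory subunit of IκB kinase, had -9.65 by the authors' deposited table (FDR = 0.0784 for both). The NF-κB pathway list had 19 genes with a p, 4 higher and 1 lower at p under 0.05, and a median of 0.49, which is -1.36 relative to genes of the same decile of level. The IL-6 family list had 15, with 3 higher and 3 lower, and a median of 1.04, which is -0.39 relative to that decile. Il11ra1 had the smallest p of that list, with 7.50 by the authors' deposited table (p = 0.0185) at a level of 5.16, where the decile median was 7.19. Clcf1 and Il11, both genes of gp130 cytokines, had -7.62 (p = 0.0186) and -5.58 (p = 0.0334) by the authors' deposited table, at levels of 13.8 and 12.4. Jak2, positive in muscle, had -5.29 in bone by the authors' deposited table (p = 0.0249) at a level of 60.9. Values as large as those of Il1b, Cxcl2, Nfkbiz, Ikbkg, Il11ra1, Clcf1, Il11 and Jak2 are not estimates of size. As with Ptx3 and Cxcl5, either the knockout or the control samples may have held almost none of the transcript. Whether this was so was not tested. Like 32.2% of bone genes, Il1b, Cxcl2, Nfkbiz and Ikbkg had an FDR under 0.1. The same limit on size holds for the 4 receptors named next. Among receptors, 4 of 9 were higher at p under 0.05 and 0 lower, and these were Cxcr2 (5.86), Ccr2 (5.38), Ccr1 (7.48) and Ackr2 (6.35) by the authors' deposited table. Their levels were 16.1, 10.2, 4.86 and 1.72, and the medians of their deciles of level were 0.88, 3.54, 7.19 and 6.42. The median of the receptor list was 2.89, which is 0.30 relative to genes of the same decile of level. Cxcr2 and Ccr2 are the receptors for Cxcl1 and Cxcl5 and for Ccl2 and Ccl7. The other CC ligands had 3 higher of 6 with a p and the other CXC ligands 2 higher of 7, and neither had a lower gene. The hyaluronan partners had 1 higher of 7, and the other mediators 2 higher and 1 lower of 12.

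The CC ligands, Cxcl1 and Cxcl5 lie in clusters of related genes, and the levels along these clusters are given for each table. Ccl2, Ccl7 and Ccl11 lie next to each other among the listed ligands on chromosome 11, within 27385 bases. Of their neighbours, Ccl8, another monocyte chemokine gene, had a level of 48.7 and a log2 fold change of -0.88 in muscle by the authors' deposited table (p = 0.476) and was listed at 0 in bone. Ccl12 and Ccl1 were listed at 0 in both tissues. The ligands farther along the chromosome, Ccl5, Ccl9, Ccl6, Ccl3 and Ccl4, had levels of at most 1.88 in muscle by the authors' deposited table. In bone their levels ran from 0.858 for Ccl4 to 78.0 for Ccl6, a ligand made by myeloid cells. On chromosome 5, Cxcl5 and Cxcl1 are 129616 bases apart. Between them lie the platelet chemokine genes Ppbp and Pf4, with levels of 0.108 and 0.878 in muscle and of 127 and 82.2 in bone by the authors' deposited table. Beside Cxcl1, Cxcl2 had a level of 369 and a log2 fold change of -0.48 in muscle by the authors' deposited table (p = 0.208), a value like the -0.47 of Cxcl1. Cxcl3 and Cxcl11 were listed at 0 in both tissues, and Cxcl15 had 4.01 in muscle and 0 in bone. Farther on, Cxcl9 and Cxcl10, interferon-induced ligands, had levels of 21.1 and 81.8 in muscle by the authors' deposited table, with log2 fold changes of 2.49 (p = 0.195) and 0.80 (p = 0.451). Levels of the 2 tissues come from separate tables and were not tested against each other.

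**Figure D4:**
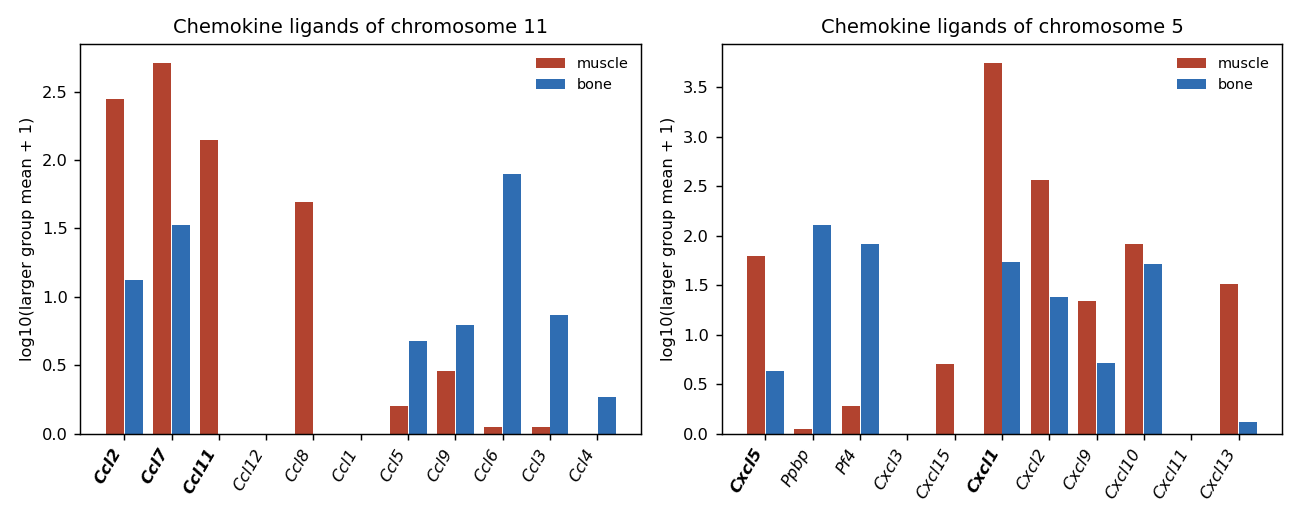
Larger group mean, as log10 of the value plus 1, for the listed chemokine ligands of chromosome 11 (left) and chromosome 5 (right) in their order along the chromosome, muscle beside bone. Bold names are genes of the set. On chromosome 11 the highest levels are those of Ccl7 in muscle (516) and Ccl6 in bone (78.0), and on chromosome 5 those of Cxcl1 in muscle (5639.8) and Ppbp in bone (127).

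The genes of the set also share annotations. In the gene ontology column of the deposited tables, 5 of the 10 (Ccl2, Ccl7, Ccl11, Cxcl1 and Cxcl5) carry neutrophil chemotaxis, and 4 (Ccl2, Ccl7, Ccl11 and Il6) carry the cellular response to interleukin-1. In muscle, 6.41% of all genes were higher at p under 0.05 and 5.31% were lower. Among the 39 other genes with the interleukin-1 response term and a p in muscle, 2 were higher and 1 lower at p under 0.05, with a median of 0.28. Among the 46 others with neutrophil chemotaxis, 1 was higher and 3 were lower, with a median of 0.55. In bone, against 28.8% of all genes higher and 4.2% lower, these counts were 10 higher and 2 lower of 39 (median 3.29), and 19 higher and 1 lower of 47 (median 2.88). Neither term held a called gene in either tissue, where 0.127% of muscle genes and 0.0352% of bone genes with an FDR were called. These terms were chosen after the values of the 10 genes were seen.

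No difference between muscle and bone in the response to the knockout passed the adjusted threshold for the 9 genes measured in both. The test compared the 2 log2 fold changes with a two-sided normal test, on the same assumption as the intervals, and was adjusted over 9598 genes by the Benjamini-Hochberg method. None of these genes passed (0%), and 24.6% had an unadjusted p under 0.05. Ptx3 had the smallest value of the set, with -0.75 in muscle and 9.22 in bone by the authors' deposited table, a difference of -9.96 (p = 0.00241, adjusted p = 0.0911). Cxcl5 followed, with -1.53 in muscle and 7.30 in bone by the authors' deposited table, a difference of -8.82 (p = 0.0107, adjusted p = 0.111). Both differences rest on bone values at the upper edge described above. Tnfaip6 had a difference of -3.11 with an interval of -7.21 to 0.98, and Ccl2 one of -3.60 with an interval of -7.98 to 0.77. Ccl7, with the same sign in both tissues, had a difference of 0.70 and an interval of -4.43 to 5.84. Il6 differed by -0.34, with an interval of -4.92 to 4.24. Intervals this wide do not show that the tissues respond alike.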

How the data were processed

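Per the labels' protocols, RNA was purified on columns and sequenced from transcript ends with QuantSeq 3' mRNA-seq libraries. Builds GRCm38 and mm10 are named in the submitters' processing notes. The aligner, the counter and the statistical test were not given in the sources used here. Per the file headers, the authors give log2 fold changes of knockout over control, each with a p-value, an FDR and a Bonferroni value. The deposited group mean (the larger of both groups' means) is treated as a score, since the file headers name no unit. The 48 per-library columns carry laboratory codes that match no label and were not used, so depth per sample is not given here. The planned edgeR and DESeq2 tests need assigned columns and were not run, and the authors' comparison took their place.

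In muscle 7107 of 13158 genes with a p had an FDR, and in bone 8534 of 10518. Positions in the tables equalled those of GENCODE M21 (GRCm38) for 564 of 25600 matched Ensembl IDs, so positions printed are those of GENCODE M21, looked up by ID. Standard errors were taken as the absolute log2 fold change over the normal quantile of p/2, with SciPy 1.17.1 and statsmodels 0.14.6 in Python 3.11.15, and the steps were tested on simulated data. There the test of the difference missed some known changes, more at the smaller of 2 sizes, and its share of false calls lay above the nominal threshold at both. The bar set for recovered changes was missed at the smaller size and was then applied at the larger. Lists were described by counts and medians, beside all genes with a p. The 10 genes, the lists and the rules were chosen with earlier results of these data known. The rule named all 10 genes, up to 4 genes of smallest p per list, and the listed ligands of both chemokine clusters. Esr1, Pdgfra, Ptprc, Gm17268 and Veph1 were named outside it, as were Elane, Ltf, Ly6g, Mpo, Lyz2 and Csf1r in muscle. Alternatives were the adjustment of p, the threshold, level filters of 10 and 50, centring, and the reference distribution of the interval.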

Additional observations from a re-analysis of the deposited data

How the results depend on the processing

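No paired analysis was possible because the columns carry no replicate number that matches the labels. For the same reason DESeq2, the fit without a count filter and leaving out each replicate were not run. Under the authors' Bonferroni adjustment, 4 muscle genes and 1 bone gene were called, against 9 and 3 at FDR 0.05. At FDR 0.1 the bone count was 2751, or 32.2% of genes with an FDR. It held 16 other pathway genes and 2 of the 9 genes of the set with an FDR (Ptx3 and Cxcl5). Adjusted over bone genes at a level of at least 10 it was 713, or 14.1%. It then held 6 other pathway genes and 1 of the 7 of the set at that level (Ptx3). Neither count of the set stands out from these shares. At a level of at least 50 the bone count was 10. The cause of these shifts in the bone count was not tested. No gene of the set was called in muscle under any of these settings. The median of the set in muscle was -0.49, and -0.60 centred on the median of all genes. In bone it was 0.68, and 0.20 centred on genes of the same decile of level. Centred on the median of all bone genes it reversed to -1.84, since that median is 2.51. The same centring reversed the muscle minus bone differences of Cxcl1, to 1.25, and of Il6, to 2.06, neither past the threshold. With a t distribution of 4 degrees of freedom, chosen after seeing the data, the median half-width of the interval was 1.20 in muscle and 4.95 in bone, against 0.94 and 4.48. Centring of single fold changes and of list medians was chosen after seeing the data. Centred on the median of all genes, Cxcl14 in muscle reversed to -0.067, and in bone Cxcl1 reversed to -1.84, Il6 to -2.33, Lif to -2.37 and Tnfaip6 to -0.27. The median of the NF-κB list then reversed to -0.065 in muscle and -2.02 in bone, and that of the IL-6 family list to -0.0029 in muscle and -1.47 in bone. Centred on the same decile of level, Ccl2 reversed to -0.44, Cxcl14 to 0.12 and Il6 to -7.01 in bone. The NF-κB median then reversed to -0.0019 in muscle and -1.36 in bone, the IL-6 family median to -0.39 in bone and the median of the interleukin-1 response term to -0.075 in bone. None of these genes was called. Depth per sample is unknown.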
